A study of Aedes aegypti with 6 samples.

Results

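The 6 genes described here encode co-receptors and carbon dioxide receptor subunits of the insect chemoreceptors, the proteins with which insects detect odours, tastes and carbon dioxide, and their levels were measured in testes of the yellow fever mosquito, Aedes aegypti. They were taken by identifier, as Orco (AAEL005776), Ir25a (AAEL009813), Ir8a (AAEL002922), Gr1 (AAEL002380), Gr2 (AAEL002167) and Gr3 (AAEL010058), and they are 6 of the 12813 genes in the deposited table. They were picked by name and identifier, with no threshold on a measured value, though after other results of these data were known. Each of the 6 has 1 transcript there. The names are those in use for these identifiers; the table itself gives identifiers alone.

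Testes came from early male pupae of 2 strains, T37, which carries a meiotic drive, and RED, which does not, with 3 arrays for each. In a meiotic drive, 1 chromosome of a pair reaches most of the gametes. Rearing was the same for both (26°C, 80% humidity, 16 h light and 8 h dark), and the labels name no other allele or treatment. Each array carried Cy3-labelled RNA from a separate extract of testes, and how many males went into an extract is not stated in the labels. The free-text description of each RED sample calls it a T37 replicate, while title, source name and strain all say RED. With 1 strain of each kind, the drive and any other difference between the strains cannot be told apart. The tissue was not checked against marker genes, because the reference used here pairs none of the identifiers with a name.

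Orco is the obligate co-receptor of the odorant receptors: it forms an ion channel with whichever odorant-binding subunit a cell makes, and in Drosophila the odorant receptors need it to reach the cilia of the neurons. Ir25a and Ir8a are co-receptors of a second family, the ionotropic receptors, which descend from glutamate receptors and respond to acids, amines, humidity and temperature. Gr1, Gr2 and Gr3 are gustatory receptor relatives that act in the carbon dioxide neurons of the maxillary palp, where Gr3 is needed for the response. Odorant receptors and Orco have also been described in mosquito sperm, in which compounds that open Orco channels set the flagellum beating. The comparison thus asked at what level the genes stood in pupal testes, and whether the level differed between the strains.

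Whole arrays differed somewhat beside the strain. Median intensities lay between 1836 and 1985. RED replicate 3 was the least like the other arrays of its strain, with a mean r of 0.882 to them across genes, which are not independent replicates, against 0.924 to 0.970 for the other arrays. It also had the darkest lower end, with a 5th percentile of log2 intensity of 6.47, against 7.61 and 7.45 on RED replicates 1 and 2 and 6.94, 6.99 and 7.37 on T37 replicates 1, 2 and 3. Results on the genes are given with and without this array. No detection calls were used here, so a dim gene could not be told from background. In testes, which are mixed tissue, fewer cells of a type and less RNA per cell cannot be told apart.

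All 6 genes gave modest signals. A percentile here is the share of the 12813 genes on an array that are no brighter than the gene. It describes brightness and does not rank transcript abundance between genes, because probes differ in how strongly they bind. The genes lay between percentiles 7.52 and 55.8, and 5 of the 6 were below the array median on all arrays. None was under the 5th percentile on any array. Orco was the exception to the first count, at percentile 55.8 on RED replicate 2. Its mean percentile was 30.4 ± 4.31 (SD, n = 3) for T37 and 47.3 ± 7.43 (SD, n = 3) for RED. Ir25a differed little between the strains in brightness, with mean percentiles of 40.0 ± 5.09 (SD, n = 3) for T37 and 38.5 ± 5.25 (SD, n = 3) for RED.

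**Figure D1:**
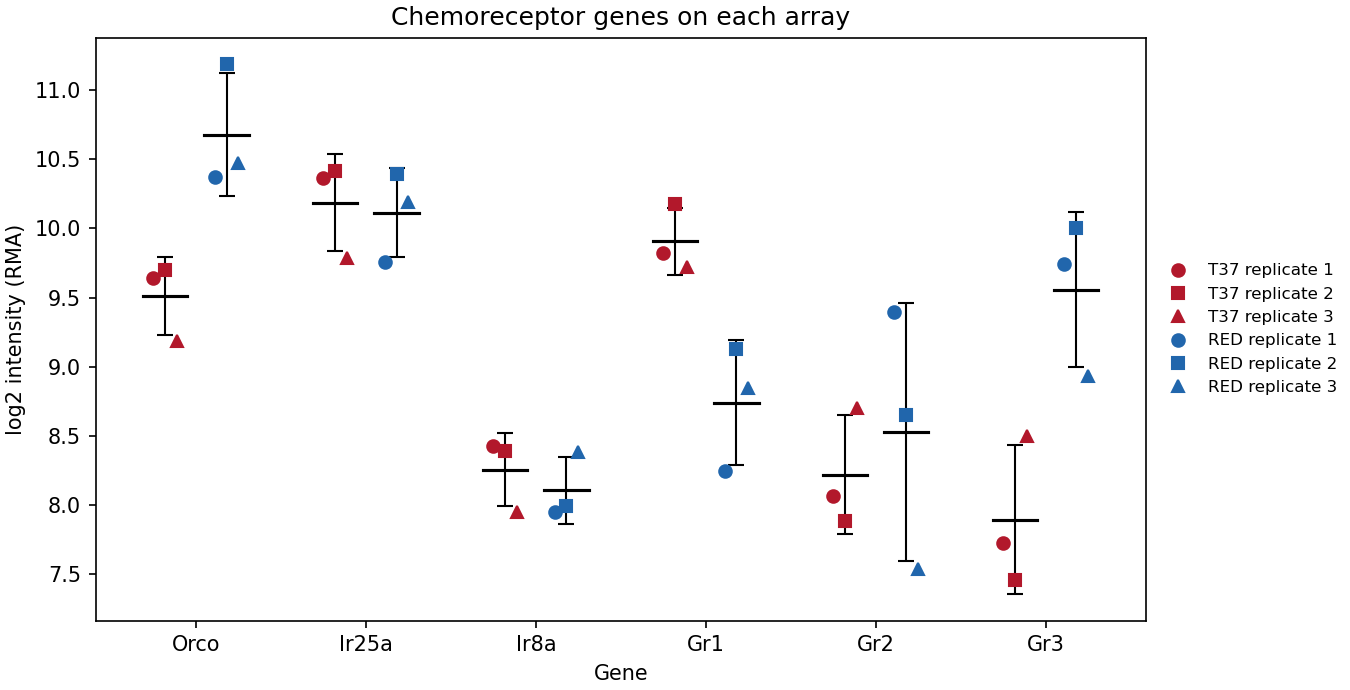
Log2 intensity of each chemoreceptor gene on each of the 6 arrays, T37 in red and RED in blue, with symbols for replicates 1, 2 and 3. Horizontal lines are strain means and bars are ± 1 SD (n = 3 arrays). The strains do not overlap for Orco, Gr1 and Gr3 and overlap for Ir25a, Ir8a and Gr2.

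None of the 6 genes passed the test between the strains. Limma, a moderated linear model fitted over all genes with Benjamini-Hochberg adjustment, called 0 of them at an adjusted p under 0.05, where it called 4.53% of all genes (2.44% higher and 2.09% lower in T37). At an unadjusted p under 0.05 it found 3 of the 6, where 22.7% of all genes passed. Of these 3, 1 was higher in T37 (12.4% of all genes) and 2 were lower (10.3%). The same 3, Orco, Gr1 and Gr3, had strain groups that did not overlap, which held for 28.7% of all genes. Gr1 was above RED on all T37 arrays, a pattern of 15.4% of all genes, and Orco and Gr3 were below it, as were 13.4%. The median difference of the 6 genes, T37 minus RED, was -0.12 on the log2 scale and that of all genes was -0.01. The median absolute difference was 0.74 for the 6 and 0.36 for all genes. These medians and counts describe a list of 6 that was not drawn at random.

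**Figure D2:**
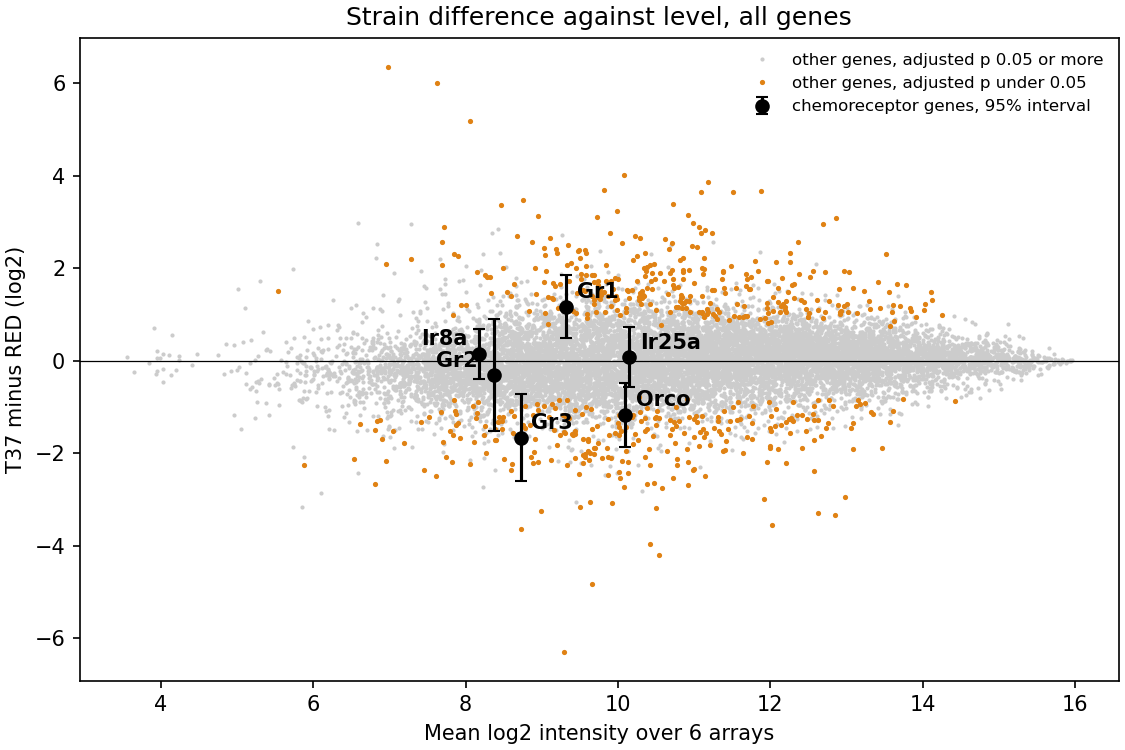
Difference between the strains (T37 minus RED, log2) against mean log2 intensity for all genes. Grey points did not pass limma's adjusted p of 0.05, orange points did, and black points are the chemoreceptor genes with their 95% intervals. The 6 genes sit in the dimmer part of the range, with Gr1 above 0, Orco and Gr3 below it, and intervals that include 0 for the other genes.

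Orco, the co-receptor of all odorant receptors, was dimmer in the drive strain on each array, though the difference missed the threshold. Its intensity was 800.3, 833 and 583 on T37 replicates 1, 2 and 3 and 1325, 2332 and 1419 on RED replicates 1, 2 and 3. The brightest T37 array thus stayed under the dimmest RED array, and RED replicate 2 was the highest of the 6. On the log2 scale the means were 9.51 ± 0.28 (SD, n = 3) for T37 and 10.68 ± 0.45 (SD, n = 3) for RED. The strains differed by -1.17 (SE 0.28; 95% interval of -1.86 to -0.47; limma adjusted p = 0.078), which corresponds to a 2.24-fold lower level in T37. By p-value Orco ranked 994 of 12813 genes, of which 580 were called. Without RED replicate 3 the difference was -1.27 (limma adjusted p = 0.063). With any 1 array left out, its limma adjusted p ran from 0.063 to 0.24 and it lay between -1.32 and -0.91. It was smallest without RED replicate 2.

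Other genes came close to the profile of Orco over the 6 arrays. Each gene was centred on its own mean, and the root mean square difference from Orco was taken over the 6 arrays. It was 0.3 or less on the log2 scale for 143 genes outside the 6, of 12813 genes in all. How many genes lie as close to the profile of another gene was not computed. The nearest was AAEL010016, at 0.11, with 8.92 ± 0.36 (SD, n = 3) for T37 and 10.09 ± 0.28 (SD, n = 3) for RED (difference -1.17). Next came AAEL010122, at 0.12, with 11.92 ± 0.23 (SD, n = 3) for T37 and 13.21 ± 0.32 (SD, n = 3) for RED. Its difference was -1.29. Both were picked for a profile that includes the strain difference, so their differences are a description, with no test. Neither identifier has a name in the files used here, and a like profile over 6 arrays says nothing of function.

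The ionotropic co-receptors showed no difference that these arrays could resolve. Ir25a, the more widely used of the pair, had intensities of 1317, 1367 and 881 on T37 replicates 1, 2 and 3. On RED replicates 1, 2 and 3 it stood at 866, 1343 and 1168. Each strain had a low and a high array, and the ranges nearly coincided. The log2 means were 10.19 ± 0.35 (SD, n = 3) for T37 and 10.11 ± 0.32 (SD, n = 3) for RED. They differed by 0.07 (SE 0.27; limma adjusted p = 0.91). The 95% interval runs from a T37 level of 0.674 times to one of 1.65 times that of RED. Its sign was not settled, since it turned to -0.01, -0.04 and -0.10 without T37 replicate 1, T37 replicate 2 and RED replicate 1. Without RED replicate 3 it was 0.11.

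Ir8a, the co-receptor used for acids, was dim on all arrays, at percentiles 7.52 to 17.6. Its intensity was 343, 336 and 247 on T37 replicates 1, 2 and 3 and 247, 255 and 334 on RED replicates 1, 2 and 3. Here RED replicate 3 was as bright as the upper T37 arrays, and T37 replicate 3 as dim as the lower RED arrays. Means on the log2 scale were 8.26 ± 0.27 (SD, n = 3) for T37 and 8.11 ± 0.24 (SD, n = 3) for RED. The difference was 0.15 (SE 0.22, 95% interval -0.39 to 0.69; limma adjusted p = 0.76), and without RED replicate 3 it was 0.29 (limma adjusted p = 0.41). On RED replicate 1 the gene lay 0.34 above that array's 5th percentile on the log2 scale, so part of its range is close to the dark end of the arrays.

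Among the carbon dioxide receptor genes, Gr1 was brighter in the drive strain and Gr3 dimmer, and neither difference passed the test. Gr1 had intensities of 903, 1160 and 844 on T37 replicates 1, 2 and 3. On RED replicates 1, 2 and 3 it had 304, 559 and 461. All T37 arrays were above all RED arrays. The log2 means were 9.91 ± 0.24 (SD, n = 3) for T37 and 8.74 ± 0.45 (SD, n = 3) for RED. The strains differed by 1.17 (SE 0.28; 95% interval of 0.49 to 1.84; limma adjusted p = 0.073), which equals a 2.24-fold higher level in T37, the same size as for Orco and the opposite way. Without RED replicate 3 it was 1.22 (limma adjusted p = 0.068). Its percentile was 36.0 ± 3.48 (SD, n = 3) for T37 and 19.1 ± 7.24 (SD, n = 3) for RED.

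Gr3, the subunit needed for the carbon dioxide response, had the largest difference of the 6. Its intensity was 211, 176 and 361 on T37 replicates 1, 2 and 3. On RED replicates 1, 2 and 3 it was 858, 1025 and 488. The strains did not overlap, and in both the third replicate lay nearest to the other strain. Log2 means were 7.89 ± 0.54 (SD, n = 3) for T37 and 9.56 ± 0.56 (SD, n = 3) for RED. The difference was -1.67 (SE 0.39, 95% interval -2.61 to -0.72; limma adjusted p = 0.070), a 3.17-fold lower level in T37. Its size was at percentile 97.5 of the absolute differences of all genes. Without RED replicate 3 it was -1.98 and passed the test (limma adjusted p = 0.029), in a fit that called 7.47% of all genes. Gr3 did not pass with any other array left out, where the limma adjusted p reached 0.27. In T37 its arrays were 0.47 to 1.13 above their 5th percentile on the log2 scale, so the fold rests on T37 values near the dark end. In RED they were 2.14 to 2.55 above it.

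Gr2, also active in the carbon dioxide neurons, varied more between replicates than between strains. Its intensity was 267, 237 and 417 on T37 replicates 1, 2 and 3. On RED replicates 1, 2 and 3 it was 674, 402 and 186, so that RED held both the highest and the lowest of the 6 arrays. Log2 means were 8.22 ± 0.43 (SD, n = 3) for T37 and 8.53 ± 0.94 (SD, n = 3) for RED. The difference was -0.31 (SE 0.50, 95% interval -1.53 to 0.90; limma adjusted p = 0.77). It turned to 0.12 without RED replicate 1 and was -0.81 without RED replicate 3 (limma adjusted p = 0.17). The SD in RED was at percentile 86.5 of that of all genes, whose median was 0.35.

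The arrays moved the genes in different directions within a strain. On T37 replicate 3, Orco, Ir25a, Ir8a and Gr1 were below their T37 means by log2 deviations of -0.32, -0.40, -0.31 and -0.19. Gr2 and Gr3 were above theirs, at 0.49 and 0.60. On RED replicate 3, Gr2 and Gr3 were below their RED means, at -0.99 and -0.63, while Ir8a stood at 0.28. RED replicate 3, with the darkest 5th percentile, had the lowest Gr2, and RED replicate 1, with the brightest, the highest. Measured from each array's 5th percentile, Gr2 lay between 0.90 and 1.79 on the log2 scale, against a span of 7.54 to 9.40 in log2 intensity. Ir8a, also dim, went the other way, with its lowest log2 intensity on RED replicate 1 (7.95) and 8.39 on RED replicate 3. From the 5th percentile Ir8a spanned 0.34 to 1.91, against 7.95 to 8.42 in log2 intensity. Why these genes differ in this was not tested. Measured from the 5th percentile, Gr3 stayed apart between the strains, as did Orco, at 1.82 to 2.72 in T37 and 2.77 to 4.0 in RED. Gr1 did not, since RED replicate 3 (2.38) passed T37 replicate 3 (2.35). Aligned on the 5th percentile, the arrays gave T37 minus RED of -1.09 for Orco, 1.24 for Gr1 and -1.59 for Gr3. None passed (limma adjusted p = 0.59, 0.50 and 0.16), in a fit that called 0.749% of all genes. The part of the arrays' lower end in the strain differences was not tested beyond this.

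**Figure D3:**
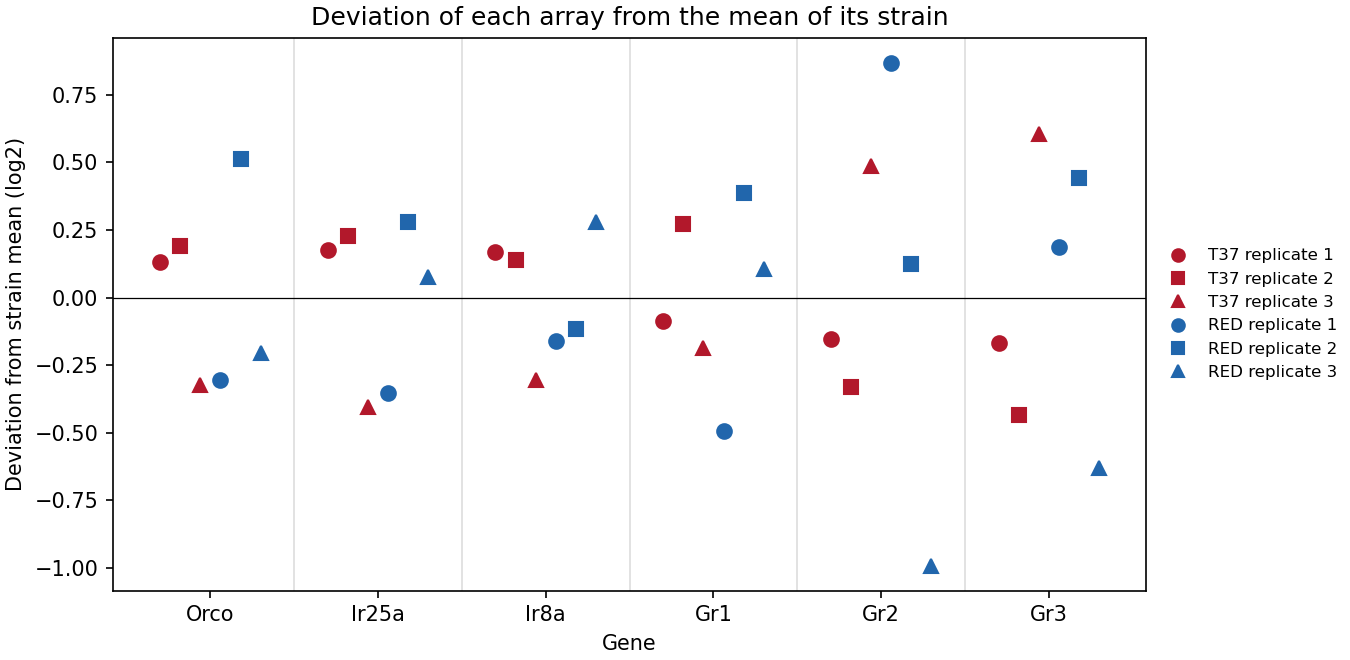
Deviation of each array from the mean of its strain (log2) for each chemoreceptor gene, T37 in red and RED in blue, with triangles for replicate 3. On T37 replicate 3 Gr2 and Gr3 lie above 0 and the other genes below it, and on RED replicate 3 Gr2 and Gr3 are the lowest points of the plot.

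Ratios of 2 genes on the same array leave out only a factor that is equal for all genes of the array. A shift that differs between bright and dim genes, such as that of the arrays' lower end, stays in them. The size of such a ratio has no meaning here because the probes differ, but its shift between the strains does. For Orco minus Ir25a the log2 ratio was -0.72, -0.71 and -0.60 on T37 replicates 1, 2 and 3 and 0.61, 0.80 and 0.28 on RED replicates 1, 2 and 3. The T37 arrays agree within an SD of 0.07, below the SDs of either gene alone in T37. The shift between strains was -1.24 with no overlap. Its two-sided exact permutation p was 0.1, the smallest that 3 arrays against 3 can give, and Orco alone already separated the strains. Within the Gr genes, Gr1 minus Gr3 was 2.01 ± 0.75 (SD, n = 3) for T37 and -0.82 ± 0.71 (SD, n = 3) for RED, a shift of 2.83 without overlap. That separation follows from Gr1 and Gr3 each separating the strains, in opposite directions, so it adds no test. Its size rests on T37 values of Gr3, and on Gr1 in RED replicate 1, near the dark end. Gr2 minus Gr3 was 0.32 ± 0.11 (SD, n = 3) for T37 and -1.03 ± 0.59 (SD, n = 3) for RED, again without overlap (exact permutation p = 0.1). Here too Gr3 alone already separated the strains. Both genes were dim in T37, at mean percentiles of 14.7 for Gr2 and 11.4 for Gr3, so this ratio rests on T37 values near the dark end. Gr1 minus Gr2 overlapped, at 1.69 ± 0.64 (SD, n = 3) and 0.21 ± 1.25 (SD, n = 3), with an exact permutation p of 0.2. Over the 6 arrays Gr1 minus Gr3 ran from -1.50 on RED replicate 1 to 2.72 on T37 replicate 2. These 4 ratios were chosen by the genes' roles after the single-gene values were known. Of all 15 ratios of 2 of the genes, 8 did not overlap between the strains, and no background over other gene pairs was computed. Each of the 8 holds Orco, Gr1 or Gr3, which separated the strains alone, so the 8 are not separate results. Orco minus Gr2 and Orco minus Gr3 overlapped, with shifts of -0.85 and 0.50 (exact permutation p = 0.3 and 0.4).

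The calls depended on which arrays were used. Without T37 replicate 3 alone, 0 of the 6 genes passed, with 2.44% of all genes called, and without RED replicate 3 alone Gr3 passed. Without replicate 3 of both strains, 4 of the 6 genes passed the test, with 32.9% of all genes called in that fit. Gr3 then stood at -2.28 (limma adjusted p = 0.0031), Gr1 at 1.31 (limma adjusted p = 0.026), Orco at -1.11 (limma adjusted p = 0.033) and Gr2 at -1.05 (limma adjusted p = 0.034). For Ir25a and Ir8a the differences were 0.31 and 0.44 and did not pass. Each strain then has 2 arrays. With any 1 array left out, Orco and Gr3 remained lower and Gr1 higher in T37, while Ir25a and Gr2 each took both signs.

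**Figure D4:**
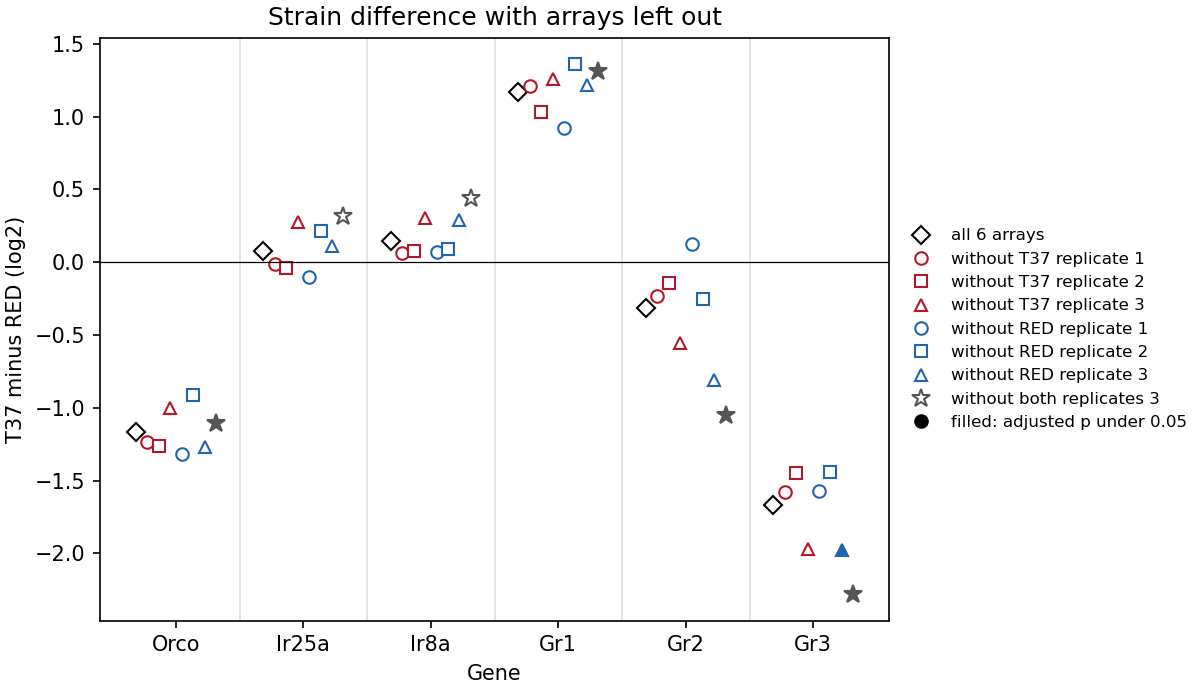
Difference between the strains (T37 minus RED, log2) of each chemoreceptor gene with all 6 arrays (diamond), without each array in turn, and without replicate 3 of both strains (star). Filled symbols passed limma's adjusted p of 0.05: Gr3 without RED replicate 3, and Orco, Gr1, Gr2 and Gr3 without replicate 3 of both strains.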

How the data were processed

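Total RNA was extracted with Trizol and treated with DNase, and NimbleGen did the labelling, per the labels' protocols. The deposited table holds 1 linear intensity per transcript and array, made by the authors with RMA, which corrects background, equalises probe distributions and summarises probes, per the submitters' processing notes. The version of RMA, the array design and the annotation release were not stated in the sources used here. Since RMA makes arrays alike, a shift of all genes in 1 strain would not be seen. Intensities (7.70 to 64205) were converted to log2 with no pseudocount, and a gene's transcripts were averaged as log2 values. All 12813 genes were fitted with limma 3.58.1 in R 4.3.3 (lmFit, eBayes, no covariate, no filter, two-sided), with Benjamini-Hochberg adjustment. The procedure was run on simulated data with independent normal noise. That simulation held no outlying array and no shift of the lower end, so it does not show how the calls behave under those. Intervals are 95% confidence intervals. Precision is limited by the 3 arrays per strain.

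Arrays were grouped by title. None of the identifiers was found in the reference of 19623 genes, so positions, sequences, other chemoreceptor genes and marker genes were not used here. The text names all 6 genes of the rule and the 2 genes nearest to Orco in profile. The members, lists and tests were chosen with earlier results of these data known. Alternatives left out arrays or changed the normalisation, the filter, the prior, the weights or the block. Alignment on the 5th percentile was added after the data were seen.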

Additional observations from a re-analysis of the deposited data

How the results depend on the processing

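Limma also called 0 of the 6 after quantile normalisation, cyclic loess, median centring, an intensity trend and raised dim values. These fits called 4.55% to 5.64% of all genes. Without the dimmest 25%, 0 of the 3 genes left, Orco, Ir25a and Gr1, were called, as were 7.39% of 9610 genes. The replicate block and alignment on the 5th percentile called 0% and 0.749% of all genes, so they say little of the 6. The count of called genes was 0 of 6 in both. It was 0 to 1 with 1 array left out, and the 0 says little without T37 replicate 1, T37 replicate 2, RED replicate 1 or RED replicate 2, where 0.117%, 0.078%, 0.648% and 0.289% of all genes were called. It was 4 without the third replicates of both strains and 3 with array weights, a fit that called 30% of all genes. With weights, Orco stood at -1.16 (limma adjusted p = 0.015), Gr1 at 1.29 (limma adjusted p = 0.015) and Gr3 at -2.23 (limma adjusted p = 0.0032). Without the third replicates the differences were -1.11 for Orco, 1.31 for Gr1, -1.05 for Gr2 and -2.28 for Gr3. With 1 array left out, they ranged from -1.32 to -0.91 for Orco, 0.92 to 1.36 for Gr1, -1.98 to -1.44 for Gr3, 0.06 to 0.30 for Ir8a, -0.10 to 0.28 for Ir25a and -0.81 to 0.12 for Gr2. Ir25a turned to -0.01, -0.04 and -0.10 and Gr2 to 0.12, as given above, and Gr3 passed at -1.98. The cause of these changes was not tested. Of 99 recomputed differences, 95 kept their direction and 8 moved past the threshold. Some could not turn: the replicate block, intensity trend, raised dim values and removal of dim genes left each tested difference as it was. So did fitting transcripts singly, since each of the 6 genes has 1. The 95 thus includes differences whose direction was fixed. Replicate numbers did not mark pairs, with same-number deviations correlating at -0.25, -0.16 and -0.17 across genes. With the replicate block the differences stay as they were by construction, at -1.17 for Orco (limma adjusted p = 0.15), 1.17 for Gr1 (0.15) and -1.67 for Gr3 (0.21). Aligned on the 5th percentile, Orco was -1.09, Gr1 1.24 and Gr3 -1.59 (limma adjusted p = 0.59, 0.50 and 0.16). Ir8a, Gr2 and Gr3 have no value without the dimmest 25%. Taken among transcripts, no mean percentile moved by more than its SD, but each gene has 1 transcript, so little movement was possible. Without detection calls, how far Ir8a, Gr2, the T37 values of Gr3 and Gr1 on RED replicate 1 stand over background is not known.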
